A study of Rattus norvegicus with 8 samples.

Results

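Fuel use in the hypothalamus was examined through 9 genes of fatty acid oxidation, fat breakdown, and ketone transport and use (Pnpla2, Angptl4, Cpt1a, Cpt1c, Pdk4, Acat1, Bdh1, Oxct1 and Slc16a1), taken by symbol from the 14506 genes with a uniquely named probe set. Each was read by its only uniquely named probe set. The samples were hypothalami of 21-day-old female Sprague-Dawley rats in 4 groups of 2 arrays. CR-l and CR-s were offspring of mothers whose calories were cut by 50% from gestation day 11 to 21 and after birth, given leptin (CR-l) or saline (CR-s) from postnatal day 2 to 8. Con-l and Con-s were offspring of normally fed mothers, given leptin or saline over the same days. The name Con-l follows the sample titles, since the series' design text has Con-r in its place. The labels give no leptin dose and do not say whether a sample pools animals or litters, so p-values measure only the spread between these 8 samples.

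When glucose is short, triglyceride is split by lipases, the fatty acids enter mitochondria through the carnitine shuttle and are oxidised, and the liver turns part of the product into ketone bodies. The brain takes up ketone bodies through monocarboxylate transporters and turns them back into acetyl-CoA, a route used heavily during suckling in rats. Pyruvate dehydrogenase, the entry of glucose carbon into the same pool, is switched off by kinases that fasting induces.

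Replicates of a group correlated at 0.9947 to 0.9955 across probe sets, and the lowest correlation of an array with any other was 0.9938 to 0.9947. The interquartile range of log2 intensity was 2.92 on CR-s replicate B and 3.01 to 3.08 on the other 7 arrays. The hypothalamic peptide genes Pmch and Oxt lay at log2 intensities of 11.09 to 11.26 and 10.96 to 11.10 on the CR arrays, and at 11.13 to 11.53 and 11.28 to 11.70 on the Con arrays. These arrays carry no detection call, and RMA values have no true 0.

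The first question was how the fuel-use genes of restricted offspring differed from those of controls, averaged over leptin and saline (4 arrays against 4). Pnpla2, the lipase that begins triglyceride breakdown, rose 1.38-fold, and Acat1, the mitochondrial thiolase that completes ketone body use, rose 1.48-fold. The other 7 genes did not pass, with log2 differences between -0.12 (Cpt1c) and 0.26 (Pdk4). Over all genes 1.21% passed (175 of 14506), and 0.324% passed as higher in CR (47 of 14506). The median log2 difference was 0.15 over the 9 genes and 0.00 over all genes. In such bulk tissue, a change in the number of cells of a type and in RNA per cell cannot be told apart.

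**Figure D1:**
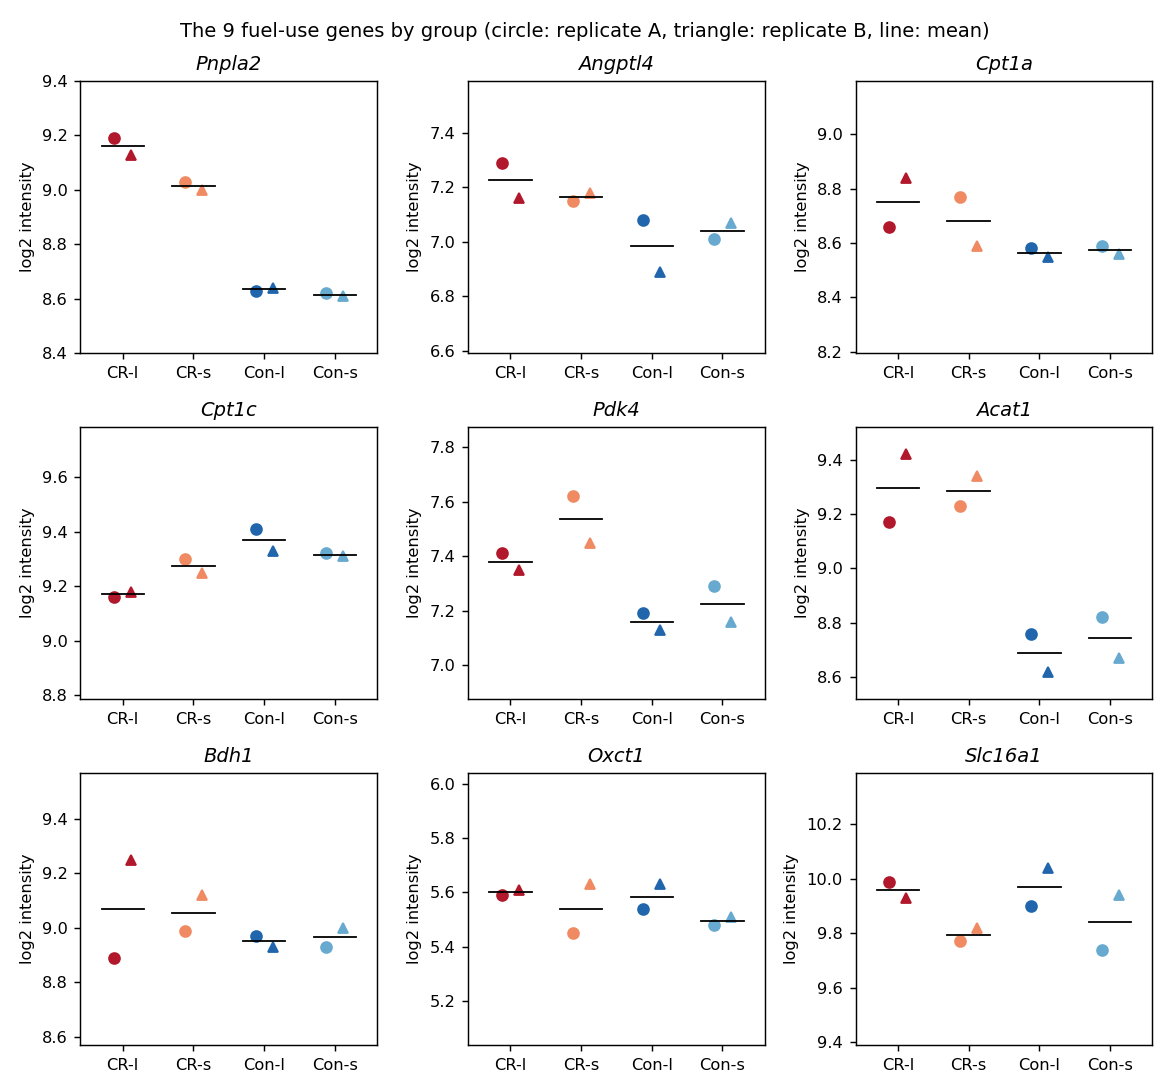
Log2 intensity of the 9 fuel-use genes on each array, by group (circles replicate A, triangles replicate B, lines group means); each panel spans 1 log2 unit. All 4 CR arrays lie above all 4 Con arrays for Pnpla2, Angptl4, Cpt1a, Pdk4 and Acat1, and below them for Cpt1c.

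Pnpla2 encodes adipose triglyceride lipase, which removes the first fatty acid from triglyceride in lipid droplets of many tissues. Its log2 intensity was 9.19 and 9.13 in CR-l, 9.03 and 9.0 in CR-s, 8.63 and 8.64 in Con-l, and 8.62 and 8.61 in Con-s. All CR arrays were higher than all Con arrays, and the 4 Con arrays lay close together (SD 0.09 for CR and 0.01 for Con). The averaged diet difference was 0.46 (SE 0.04, 95% interval 0.37 to 0.55, limma adjusted p = 0.0133), the 7th smallest p of 14506 genes. The difference stayed between 0.44 and 0.48 when any single array was left out. The adjusted p then exceeded the threshold of 0.05 without CR-s replicate A (0.0627), without Con-l replicate A (0.0593), and without either Con-s array (0.0568 for replicate A and 0.0925 for B). It was 0.0357 to 0.0478 without each of the other 4 arrays.

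Acat1 encodes acetyl-CoA acetyltransferase of mitochondria, which splits acetoacetyl-CoA into acetyl-CoA in ketone use and also acts in isoleucine breakdown. Its log2 intensity was 9.17 and 9.42 in CR-l, 9.23 and 9.34 in CR-s, 8.76 and 8.62 in Con-l, and 8.82 and 8.67 in Con-s. The gap between the lowest CR array (9.17) and the highest Con array (8.82) exceeded the spread within either diet. The averaged diet difference was 0.57 (SE 0.07, 95% interval 0.40 to 0.74, limma adjusted p = 0.0233). It ranged from 0.51 to 0.63 with single arrays left out. The call held without CR-l replicate A (limma adjusted p = 0.0478) and was lost without each of the other 7. Its adjusted p was then 0.0842 without CR-l replicate B, 0.0739 and 0.0840 without CR-s replicates A and B, 0.0813 and 0.0773 without those of Con-l, and 0.0659 and 0.0988 without those of Con-s. Over all 14506 genes, 0 to 27 passed with 1 array left out.

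The promoters of the 2 genes that rose are shown because both genes passed as higher in CR, each from 250 bases before to 50 after the RefSeq transcript start, with capitals marking GC boxes, bound by Sp and KLF factors (GGGCGG, or CCGCCC on the other strand), and CCAAT boxes (CCAAT, or ATTGG on the other strand).
Pnpla2 promoter, GRCr8 chr1:205982029-205982328, plus strand: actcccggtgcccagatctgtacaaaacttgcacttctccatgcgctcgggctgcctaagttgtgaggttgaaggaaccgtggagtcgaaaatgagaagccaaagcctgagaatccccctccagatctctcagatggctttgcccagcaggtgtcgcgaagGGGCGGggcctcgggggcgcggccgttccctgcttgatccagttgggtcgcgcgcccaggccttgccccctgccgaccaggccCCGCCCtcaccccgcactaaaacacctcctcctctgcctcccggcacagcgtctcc
Acat1 promoter, GRCr8 chr8:62904993-62905292, minus strand: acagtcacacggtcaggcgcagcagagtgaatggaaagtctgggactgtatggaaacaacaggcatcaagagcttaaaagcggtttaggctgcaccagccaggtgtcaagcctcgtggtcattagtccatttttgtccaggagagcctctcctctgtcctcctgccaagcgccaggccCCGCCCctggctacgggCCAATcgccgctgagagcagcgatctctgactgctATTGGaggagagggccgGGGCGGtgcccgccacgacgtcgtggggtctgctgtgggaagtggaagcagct

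In the Pnpla2 promoter GC boxes began at -89 and -6 from the start. In the Acat1 promoter they began at -72 and -3, with CCAAT boxes at -55 and -20. RefSeq (GRCr8) promoters were at hand for 8 of the 9 genes (not Cpt1c), and 7 of those 8 held a GC box, against 33.1% of all 33469 promoters of this length. A CCAAT box was found in 2 of the 8 (Acat1 and Pdk4), against 37.5% of all promoters. The nuclear receptor half-site AGGTCA (or TGACCT), the glucocorticoid receptor half-site AGAACA (or TGTTCT) and the forkhead core GTAAACA (or TGTTTAC) were in none of the 8, against 16.2%, 20.7% and 3.78% of all promoters. A match or its lack describes letters in this window and nothing about a factor.

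Pdk4, a kinase that shuts off pyruvate dehydrogenase, had the next smallest p of the 9. Its log2 intensity was 7.41 and 7.35 in CR-l, 7.62 and 7.45 in CR-s, 7.19 and 7.13 in Con-l, and 7.29 and 7.16 in Con-s. The CR arrays were all higher than the Con arrays, with the 2 highest values in CR-s. The averaged difference was 0.26 (SE 0.06, 95% interval 0.13 to 0.40, limma adjusted p = 0.0915) and did not pass. It passed among the upper 60 percent of genes by mean (limma adjusted p = 0.0285) and with trend and robust variance settings (limma adjusted p = 0.0290). Over all genes 609 of 8704 and 744 of 14506 passed in those settings.

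Angptl4 encodes a secreted inhibitor of lipoprotein lipase that rises in fasting. It had 7.29 and 7.16 in CR-l, 7.15 and 7.18 in CR-s, 7.08 and 6.89 in Con-l, and 7.01 and 7.07 in Con-s on the log2 scale. The CR arrays did not overlap the Con arrays, while leptin and saline arrays overlapped within each diet, and CR-l replicate A was the highest array. The averaged difference was 0.18 (SE 0.06, 95% interval 0.04 to 0.32, limma adjusted p = 0.201). Lpl, the lipase it inhibits (named after its values were seen), had log2 intensities of 6.84 to 6.97 on CR arrays and 6.37 to 6.77 on Con arrays, a difference of 0.34 (SE 0.08, adjusted p = 0.117). Neither gene passed.

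Cpt1a and Cpt1c are paralogues. CPT1A is the carnitine acyltransferase that admits long-chain fatty acids to mitochondria, while CPT1C is a neuronal form of the endoplasmic reticulum with little such activity. Cpt1a had 8.66 and 8.84 in CR-l, 8.77 and 8.59 in CR-s, 8.58 and 8.55 in Con-l, and 8.59 and 8.56 in Con-s on the log2 scale. The 4 Con arrays lay close together (SD 0.02) and the CR arrays were higher and more spread (SD 0.11), with CR-s replicate B (8.59) almost at the highest Con value. Its averaged difference was 0.15 (SE 0.06, 95% interval 0.00 to 0.29, limma adjusted p = 0.305). Cpt1c ran the other way: 9.16 and 9.18 in CR-l, 9.30 and 9.25 in CR-s, 9.41 and 9.33 in Con-l, and 9.32 and 9.31 in Con-s. Every CR array was lower than every Con array, the closest pair being 9.30 and 9.31, and the averaged difference of -0.12 (SE 0.04, 95% interval -0.22 to -0.03, limma adjusted p = 0.214) did not pass.

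The remaining ketone genes showed no separation by diet. Bdh1, which interconverts beta-hydroxybutyrate and acetoacetate, had 8.89 and 9.25 in CR-l, 8.99 and 9.12 in CR-s, 8.97 and 8.93 in Con-l, and 8.93 and 9.0 in Con-s. CR-l held both its lowest and its highest value (SD 0.25 in CR-l and 0.03 to 0.09 in the other groups), and the averaged difference was 0.10 (SE 0.08, 95% interval -0.09 to 0.30, limma adjusted p = 0.595). Oxct1, the transferase that activates acetoacetate and commits it to oxidation, had 5.59 and 5.61 in CR-l, 5.45 and 5.63 in CR-s, 5.54 and 5.63 in Con-l, and 5.48 and 5.51 in Con-s. Its groups overlapped, with a difference of 0.03 (SE 0.05, 95% interval -0.10 to 0.15, limma adjusted p = 0.853). Slc16a1, the monocarboxylate transporter MCT1, had 9.99 and 9.93 in CR-l, 9.77 and 9.82 in CR-s, 9.90 and 10.04 in Con-l, and 9.74 and 9.94 in Con-s. CR and Con arrays interleaved, with a difference of -0.02 (SE 0.06, 95% interval -0.17 to 0.12, limma adjusted p = 0.890). The ends of these intervals correspond to folds of 0.94 and 1.23 for Bdh1, and of 0.89 and 1.09 for Slc16a1. The filter on dim genes removed Oxct1, whose signal was not shown to be above background, so its interval sets no limit on a change.

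Among the 9 genes, 6 had CR and Con arrays that did not overlap, against 11.2% of all genes (1622 of 14506). Of these, 5 had all CR arrays higher (Pnpla2, Acat1, Pdk4, Angptl4 and Cpt1a), against 4.52% of all genes (655 of 14506), and 1 had all CR arrays lower (Cpt1c). The same 6 had an unadjusted p under 0.05, which 15.8% of all genes had. The 9 genes were listed with earlier results of these data known, so these shares describe them and test nothing. CR-l replicate B held the highest value of 3 genes (Acat1, Bdh1 and Cpt1a), and Con-l replicate B the lowest value of 4 of the 9.

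**Figure D2:**
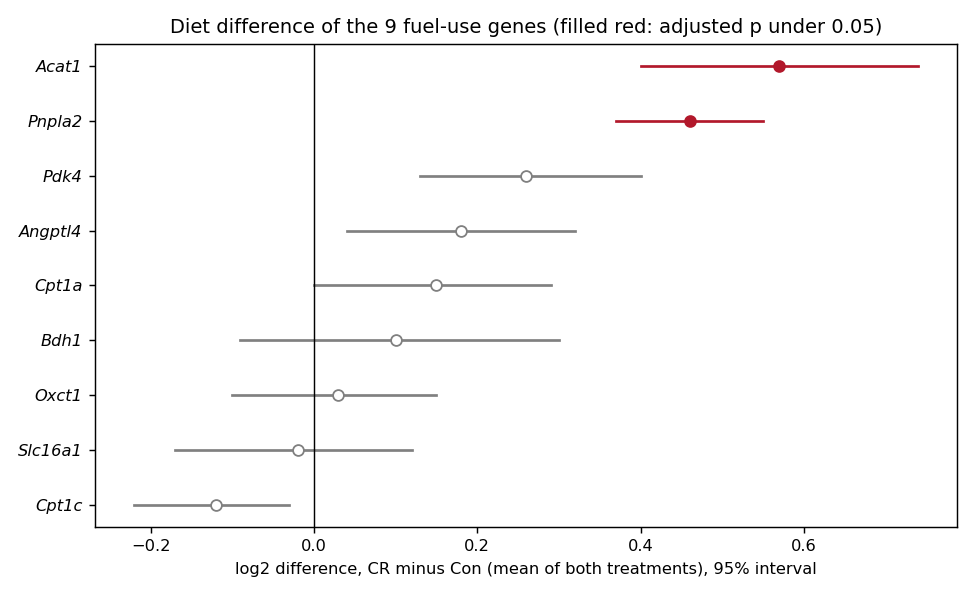
Log2 difference of CR minus Con, averaged over leptin and saline, for the 9 fuel-use genes (points, with unadjusted 95% intervals; filled red where the adjusted p over all genes was under 0.05). Acat1 (0.57) and Pnpla2 (0.46) passed, and Cpt1c (-0.12) was the lowest.

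Under leptin alone (CR-l against Con-l, 2 arrays each) none of the 9 genes passed, and 0.0207% of all genes did (3 of 14506). Pnpla2 differed by 0.52 (SE 0.06, limma adjusted p = 0.0535), Acat1 by 0.60 (SE 0.10, limma adjusted p = 0.0870), Angptl4 by 0.24 (SE 0.08), Pdk4 by 0.22 (SE 0.08) and Cpt1a by 0.19 (SE 0.09). Cpt1c differed by -0.20 (SE 0.06, limma adjusted p = 0.199). With the log2 values quantile-normalized again Pnpla2 passed (limma adjusted p = 0.0460), as it did with cyclic loess (limma adjusted p = 0.0488). Over all genes 10 and 24 of 14506 passed in those settings.

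Under saline alone (CR-s against Con-s, 2 arrays each) none of the 9 passed, and 0% of all genes did with limma (1233 had an unadjusted p under 0.05, 3 of the 9 genes among them). Pnpla2 differed by 0.40 (SE 0.06, limma adjusted p = 0.193), Acat1 by 0.54 (SE 0.10, limma adjusted p = 0.302) and Pdk4 by 0.31 (SE 0.08, limma adjusted p = 0.395). Angptl4 (0.12), Cpt1a (0.11), Bdh1 (0.09), Oxct1 (0.05), Cpt1c (-0.04) and Slc16a1 (-0.04) lay closer to 0. The 2 diet comparisons use different arrays.

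The second question was what early leptin did to these genes. Among offspring of restricted mothers, with CR-l set against CR-s, none passed, nor did any gene of the table (0%, limma, with 849 at an unadjusted p under 0.05). Pnpla2 was 0.15 higher in CR-l (SE 0.06, 95% interval 0.02 to 0.28, limma adjusted p = 0.808), so that the CR-l arrays lay farther than the CR-s arrays from those of Con. Pdk4 differed by -0.16 (SE 0.08, 95% interval -0.35 to 0.04), Slc16a1 by 0.16 (SE 0.09, 95% interval -0.04 to 0.36) and Cpt1c by -0.11 (SE 0.06, 95% interval -0.25 to 0.03). Acat1 differed by 0.01 with an interval of -0.23 to 0.25, which leaves out a leptin change as large as its averaged diet difference of 0.57.

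Among offspring of normally fed mothers, Con-l minus Con-s for the 9 genes ran from -0.06 (Pdk4) to 0.13 (Slc16a1), and none passed, with 0% of all genes passing (608 at an unadjusted p under 0.05, limma). For Pnpla2 the difference was 0.02 (95% interval -0.11 to 0.15), and for Acat1 -0.05 (95% interval -0.30 to 0.19). Averaged over both diets, leptin minus saline was largest for Slc16a1 (0.15, SE 0.06, limma adjusted p = 0.913), whose leptin arrays (9.90 to 10.04) overlapped its saline arrays (9.74 to 9.94). No member of the 9 had leptin and saline arrays that did not overlap, against 2.37% of all genes (344 of 14506), and 0% of all genes passed (707 at an unadjusted p under 0.05). The interaction, which asks whether leptin acted differently by diet, passed for none of the 9 and for 0% of all genes (limma, 747 at an unadjusted p under 0.05). Its values ran from -0.16 for Cpt1c (SE 0.08) to 0.13 for Pnpla2 (SE 0.08), so the 2 leptin effects were not shown to differ.

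**Figure D3:**
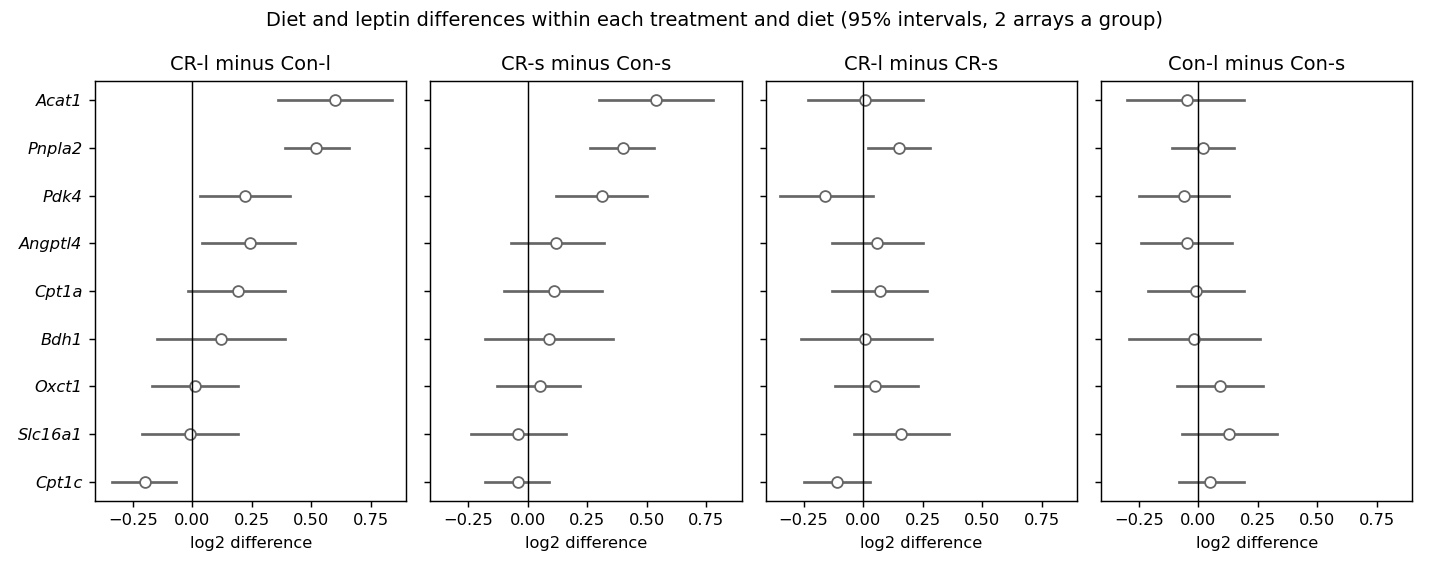
Log2 differences of the 9 fuel-use genes between pairs of groups, with unadjusted 95% intervals, 2 arrays a group; none of the 9 passed with p adjusted over all genes. Acat1 and Pnpla2 lie at 0.40 to 0.60 in both diet comparisons on the left, and the leptin comparisons on the right lie between -0.16 and 0.16.

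Other genes of these pathways were read from 7 lists with 101 genes, of which 91 were measured. In the averaged diet comparison 1 of the 91 passed as higher and 4 as lower, and in the other comparisons none passed. Over all genes 1.21% passed in the averaged comparison, and 0.324% passed as higher. The lists were chosen with earlier results of these data known, so such counts describe them and test nothing. The list of fatty acid synthesis and desaturation had 3 of 12 measured genes fall and none rise, 10 of 12 lower, and a median difference of -0.18. Scd, a stearoyl-CoA desaturase that makes monounsaturated fatty acids, lay at 8.31 to 8.56 on CR arrays and 9.02 to 9.46 on Con arrays, a difference of -0.72 (SE 0.10, limma adjusted p = 0.0325). Fads1, the delta-5 desaturase, lay at 10.89 to 11.06 on CR arrays and 11.38 to 11.42 on Con arrays, a difference of -0.44 (SE 0.05, limma adjusted p = 0.0223). Scd2, the desaturase form prominent in rodent brain, lay at 12.88 to 12.93 on CR arrays and 13.15 to 13.20 on Con arrays, a difference of -0.26 (SE 0.04, limma adjusted p = 0.0383). For each of these genes the diets did not overlap. Oligodendrocytes, which make lipid for myelin, express such enzymes at high levels, and all 10 measured oligodendrocyte markers were lower in CR (median -0.26, 3 passing), with a summed intensity of 39122 to 42593 on CR arrays and 45047 to 49520 on Con arrays. Their part in the falls was not tested.

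In the carnitine shuttle and beta-oxidation list 10 of 20 measured genes were higher and 10 lower (median 0.00). Etfb, a subunit of the flavoprotein that takes electrons from fatty acid oxidation, rose, with 9.57 to 9.69 on CR arrays and 9.34 to 9.45 on Con arrays, a difference of 0.25 (SE 0.04, limma adjusted p = 0.0449). No other gene of that list passed in this fit, and 3 in all did among the upper 60 percent of genes by mean. In the uptake and activation list 5 of 14 were higher (median -0.06). Fabp7, the fatty acid binding protein of radial glia and astrocytes, fell, with 8.68 to 8.91 on CR arrays and 8.96 to 9.35 on Con arrays, a difference of -0.43 (SE 0.06, limma adjusted p = 0.0325). Of 9 astrocyte markers 4 were higher and 5 lower (median -0.01, Gfap passing at -0.94, SE 0.12), and their summed intensity was 21414 to 22783 on CR arrays and 22655 to 23599 on Con arrays; their part in the Fabp7 fall was not tested. With each array left out in turn, Fabp7, Etfb, Scd and Scd2 never passed (adjusted p 0.0557 to 0.162), and Fads1 passed only without CR-l replicate B (adjusted p = 0.0493), with 0.0546 to 0.0951 otherwise.

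None of the remaining lists held a gene that passed. Of 11 lipolysis and lipid droplet genes besides Pnpla2, 5 were higher (median 0.00). Smallest in p were the monoacylglycerol lipase Abhd6 (-0.27, adjusted p = 0.160), the hormone-sensitive lipase Lipe (-0.14, adjusted p = 0.266) and the triglyceride-forming enzyme Dgat1 (0.10, adjusted p = 0.408). The Pnpla2 coactivator Abhd5 and inhibitor G0s2, named after their values were seen, had -0.05 (adjusted p = 0.687) and 0.05 (adjusted p = 0.861). Of 8 other ketone genes 3 were higher (median -0.06). Acat2, the cytosolic thiolase that feeds sterol synthesis, differed by -0.20 (SE 0.05, adjusted p = 0.127), with 9.03 to 9.17 on CR arrays and 9.23 to 9.40 on Con arrays. The paralogues Acat1 and Acat2 thus lay on opposite sides of 0, and the difference between them was not tested. The acetate-activating Acss2 had -0.21 (adjusted p = 0.136) and the neuronal transporter Slc16a7 (MCT2) 0.19 (adjusted p = 0.169).

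Around pyruvate dehydrogenase 7 of 13 genes were higher (median 0.02), with the phosphatase Pdp2 at -0.15 (adjusted p = 0.178), the subunit Dlat at 0.17 (adjusted p = 0.234) and the kinase Pdk2 at 0.10 (adjusted p = 0.295). Of 13 fasting-linked regulators 11 were higher (median 0.06). The coactivator Ppargc1a had 0.25 (SE 0.05, adjusted p = 0.0642), with 9.49 to 9.67 on CR arrays and 9.30 to 9.40 on Con arrays, Klf15 had 0.14 (adjusted p = 0.264) and Ppargc1b 0.06 (adjusted p = 0.540). These 2 lists held no call in this fit. Over all genes the median difference was 0.00 and the median absolute difference 0.06.

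**Figure D4:**
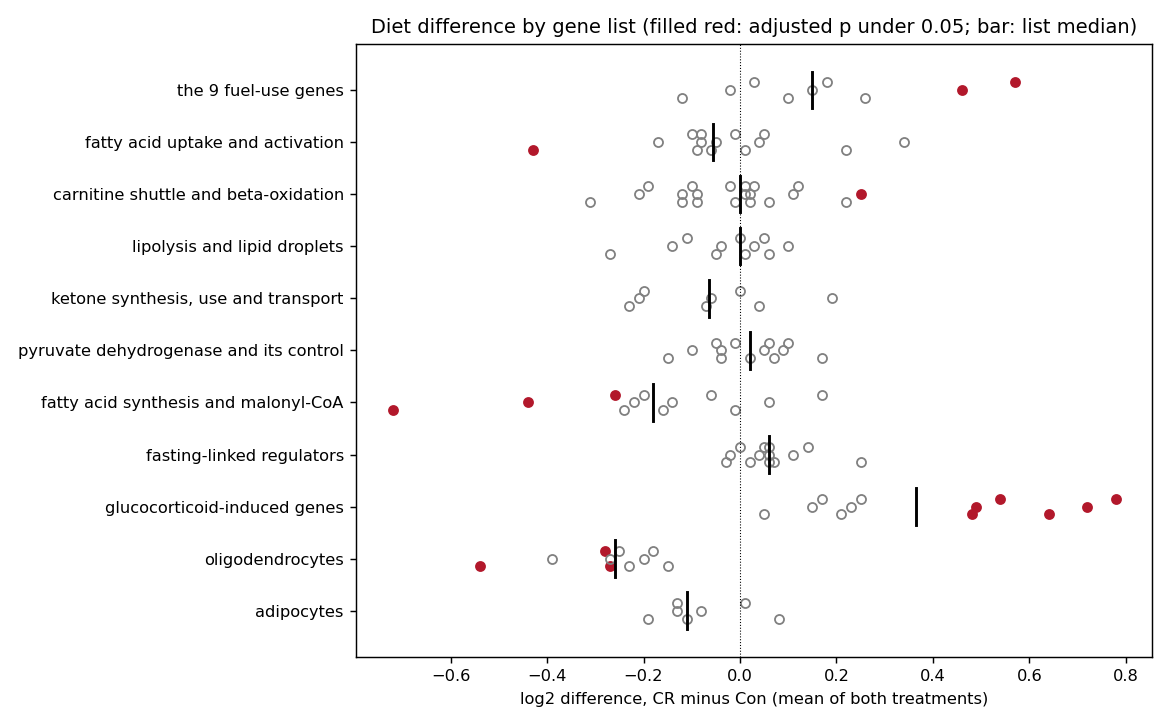
Log2 difference of CR minus Con, averaged over leptin and saline, for each measured gene (points) of the 9 fuel-use genes, the 7 pathway lists and 3 marker lists, with list medians as bars; filled red points passed over all genes. Fatty acid synthesis genes lie mostly below 0 (median -0.18) and glucocorticoid-induced genes above it (median 0.36).

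Several marker lists moved with diet beside Pnpla2 and Acat1. Pdk4 and Angptl4 are also known as glucocorticoid-induced genes. All 12 genes of a separate glucocorticoid-induced list were higher in CR (median 0.36, 6 passing), among them Zbtb16 (0.72, SE 0.08), Fkbp5 (0.64, SE 0.09) and Sgk1 (0.49, SE 0.07), with a summed intensity of 7917 to 10335 on CR arrays and 5915 to 6623 on Con arrays. All 5 red blood cell genes fell (median -1.29, summed intensity 1306 to 2124 on CR arrays and 3796 to 5764 on Con arrays), and 9 of 10 meningeal genes were lower (median -0.42, 3 passing, 2870 to 3397 on CR arrays and 3710 to 4972 on Con arrays). Endothelial cells are rich in Slc16a1 in young brain, and 9 of their 12 markers were lower (median -0.09, none passing, 3191 to 3415 on CR arrays and 3355 to 3650 on Con arrays). Of 12 hypoxia-induced genes 5 were higher (median -0.06, 1 passing as higher and 2 as lower, 11713 to 12209 on CR arrays and 12283 to 12839 on Con arrays). Mural markers had 6 of 8 lower (median -0.05, 2 passing as lower, summed intensity 3664 to 3902 on CR arrays and 4191 to 4455 on Con arrays). Choroid plexus markers had 2 of 6 lower (median 0.03, 1 passing as lower, 477 to 490 on CR arrays and 506 to 567 on Con arrays). Microglial markers had 4 of 8 higher (median -0.02), general neuronal markers 7 of 9 higher (median 0.02), and ependymal and tanycyte markers 2 of 6 higher (median -0.01), with no gene passing. Of 12 hypothalamic neuron genes 7 were higher (median 0.04), with Npy (0.75) and Agrp (0.70), which drive feeding, passing as higher and Oxt (-0.38) as lower. Over all genes 1.21% passed, and these lists were chosen with earlier results of these data known. The part of the listed genes in the differences of the 9 fuel-use genes was not tested.

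Pnpla2 and Angptl4 are strongly expressed in fat. Of 7 measured adipocyte markers 2 were higher in CR (median -0.11, none passing), with a summed intensity of 362 to 416 on CR arrays and 389 to 412 on Con arrays. Adipoq, the defining adipocyte transcript, lay at 4.85 to 5.05 on CR arrays and 5.13 to 5.17 on Con arrays, and Plin1 at 5.50 to 5.78 on CR arrays and 5.6 to 5.88 on Con arrays. These markers are dim, and their signal was not shown to be above background. The part of fat in the Pnpla2 and Angptl4 differences was not tested.

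The genes whose pattern over the 8 arrays lay nearest to Pnpla2, by the root mean square difference of log2 values centred on each gene's mean, were Igfbp3 (0.060), Tmem178a (0.071) and Si (0.076). Their averaged diet differences were 0.42, 0.33 and 0.37. Nearest to Acat1 were Or2k2 (0.079), Sgk1 (0.079) and Morn2 (0.089), with diet differences of 0.59, 0.49 and 0.44. All 6 passed in the averaged diet comparison (limma adjusted p = 0.0160 to 0.0498). They were picked for closeness to a gene that had passed on the same 8 arrays. Their diet differences thus follow from the choice and test nothing.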

How the data were processed

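Hypothalamic RNA of 8 samples was hybridised to Affymetrix Rat Gene 1.0 arrays. Per the submitters' processing notes, the authors used RMA in Affymetrix Expression Console (version not given in the sources used here) to background-correct, normalize and summarise the probes. Each deposited number is a linear-scale intensity for a probe set, judged from the range of values, and was log2-transformed without further normalization or filtering. Of 29215 probe sets, 15310 carried 1 gene symbol, updated through RefSeq gene numbers, and the brightest probe set by mean over the 8 arrays was kept for each of 14506 genes. All 9 listed genes had 1 such probe set each.

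A limma model (version 3.58.1, R 4.3.3, lmFit and eBayes) with 4 group means gave every comparison, with 4 residual and 3.21 prior degrees of freedom. Tests were two-sided, p-values were Benjamini-Hochberg adjusted over 14506 genes, intervals are unadjusted 95% intervals, and a gene passed at an adjusted p under 0.05. The model was tested on simulated data. The number of arrays limits the precision. The 9 genes, the 7 pathway lists and the 14 marker lists were chosen with earlier results of these data known. Named beside the 9 genes are pathway genes that passed (or the 3 with the smallest p where none did), up to 3 passing genes of a marker list, defining markers given as levels (Pmch, Oxt, Adipoq and Plin1), and the 3 genes nearest in pattern to each of the 9 that passed. Genes outside this rule are marked as such where they appear. Alternatives were another normalization, a filter on dim genes, all probe sets together, the mean over probe sets, other variance settings, the compared factor alone, the replicate letters as a block, and leaving out each array.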

Additional observations from a re-analysis of the deposited data

Results flagged for a closer look

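Among the 4 CR arrays, Angptl4 on CR-l replicate A (7.29 on the log2 scale) stood apart from the other 3, which lay between 7.15 and 7.18. The gap to the nearest array was 0.834 of the whole range, just above Dixon's critical value for 4 values at the 95% level. Groups of 2 arrays cannot be examined in this way, so the 4 arrays of each diet were, and chance marks about 1 in 20 such sets. Over the 9 genes and 2 diets it was the only value so marked. Without that array the averaged diet difference of Angptl4 was 0.148 (adjusted p = 0.389), against 0.18 with it, and it passed in neither case. The interaction of diet and leptin passed for none of the 9 genes.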

How the results depend on the processing

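Of the 9 genes 2 passed in the averaged diet comparison, 1 with the replicate letters as a block (Pnpla2, with Acat1 at an adjusted p of 0.0514), 0 with all 29215 probe sets tested together (Pnpla2 adjusted p = 0.0650, Acat1 0.0788, with 3354 probe sets at an unadjusted p under 0.05), and 0 to 2 with single arrays left out. Among the upper 60 percent of genes by mean (8704 genes), and with trend and robust settings, 3 passed (Pnpla2, Acat1 and Pdk4). The averaged diet differences ranged from 0.44 to 0.48 for Pnpla2 and 0.51 to 0.63 for Acat1 over 16 alternatives. Only another normalization or a left-out array could move these differences, and the other alternatives keep them by construction. Across all genes, deviations of same-lettered arrays correlated at -0.0606 to 0.109, so they shared no broad shift. That cannot decide whether the letters pair the samples, since a pairing may touch few genes. Without Con-s replicate B the sign of Slc16a1 turned (0.024), as it did without Con-l replicate B (0.012), in a range of -0.074 to 0.024, and that of Oxct1 without CR-s replicate B (-0.017 to 0.072 over arrays left out). The cause was not tested. Under saline alone 1 gene passed among the upper 60 percent by mean (Pnpla2) and 2 with trend and robust settings (Pnpla2 and Acat1). Over all genes those settings gave 16 calls of 8704 and 66 of 14506. Under leptin alone 1 passed with cyclic loess and 1 with quantile normalization (Pnpla2), and 2 in each of the settings named for saline (Pnpla2 and Acat1). Over all genes cyclic loess gave 24 calls of 14506 and quantile normalization 10. The settings named for saline gave 249 of 8704 and 469 of 14506. Over the 6 comparisons other than the averaged diet comparison, 58 of 813 recomputed differences changed sign, all of them at 0.12 or less in size as reported. Many of the 813 could not move, so this share does not measure stability. Settings other than normalization and left-out arrays kept each difference, as did leaving out an array outside the comparison. Over all genes the averaged diet comparison gave 175 calls, 87 with the block, 0 with all probe sets, 609 in the upper 60 percent, 744 with trend and robust settings, 267 with the compared factor alone, and 0 to 27 without single arrays. The fatty acid synthesis list held 3 calls, 1 with the block, 0 with all probe sets, 5 with the factor alone, 6 in the upper 60 percent, 7 with trend and robust settings, and 0 or 1 without single arrays. The uptake list held 1 call, 4 with trend and robust settings, and 0 with all probe sets or without any 1 array. The beta-oxidation list held 1, 3 in the upper 60 percent, 4 with trend and robust settings, and 0 with the block, with all probe sets or without any 1 array. The ketone list held 0 calls and 2 in each of the settings on the upper 60 percent and on trend, the regulators 0 and 1, and lipolysis 0 and 1 with trend alone. The glucocorticoid list held 6 calls, 2 with the block, 0 with all probe sets and 0 or 1 without single arrays. Signal over background was not measured, and the filter on dim genes left Oxct1 untested (8 of 9 genes).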
